A study of Mus musculus with 18 samples.

Results

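The IL-1, IL-18 and IL-33 receptor family was followed in mouse CD4 T cells through 7 of the 55536 genes of the count table: Il1rl1, Il1r1, Il18r1, Il1r2, Il1rap, Il18rap and Sigirr. The genes were chosen by name, as members of the family, and the choice was made with calls from these same libraries already known. Which of the values led to the choice is not recorded, so every level, fold change and adjusted p of the 7 genes is given as a description and supports nothing on its own. All 7 passed the filter on low counts that 15204 genes passed. They carried very different depths, with 649 counts summed over the 18 libraries for Il1rl1 and 3354 to 7224 counts in each library for Sigirr.

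The cells came from C57BL/6 mice with OTII, a transgenic T cell receptor that recognises an ovalbumin peptide. W131AOTII mice also carried the W131A change in ZAP-70, a kinase of T cell receptor signalling, and serve as a genetic model of T cell anergy, a state of unresponsiveness. Cbl-b-/- mice lacked Cbl-b, a ubiquitin ligase that limits T cell receptor signalling, and the question of the series was which pathways Cbl-b controls in anergy. RNA was sequenced in 18 libraries, 3 in each of 6 groups, with 19708218 to 36218772 counts per library.

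The 4 peripheral groups, taken from spleen and lymph nodes, were OTII cells, W131AOTII cells, cells of Cbl-b-/- OTII mice and cells of Cbl-b-/-W131AOTII mice. Those cells were sorted as Va2+, CD25-negative CD4 T cells of the naive type, with low CD44 and with CD62L. The 2 thymic groups, OTII and W131AOTII, were Va2+, CD25-negative CD4 single-positive thymocytes, and all 6 groups carried the OTII receptor, the Cbl-b-/- OTII group according to its sample titles. Ages were not given, and no thymic group lacked Cbl-b. The protocol names 12 W131AOTII mice in sets of 4 and 6 Cbl-b-/-W131AOTII mice in sets of 2. For OTII and for Cbl-b-/- OTII it names 3 mice each, without a set size. Such a set may be the pool behind 1 library, so pooling may differ between genotypes. Whether thymic and peripheral libraries came from the same mice is not stated. How mice map to libraries is not stated, and the adjusted p-values therefore measure the spread between these libraries, which may be technical in part. The 3 comparisons with peripheral OTII share those 3 libraries. Where levels of the peripheral groups are listed, W131AOTII is called the group with W131A, Cbl-b-/- OTII the group without Cbl-b and Cbl-b-/-W131AOTII the group with both changes.

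As a check of the labels, Cblb was read at 51.0 to 90.5 CPM (counts per 1000000 counts of the library) in Cbl-b-/- OTII libraries and at 122.3 to 141.7 CPM in peripheral OTII libraries. It was at 82.8 to 110.8 CPM in Cbl-b-/-W131AOTII and at 146.1 to 176.6 CPM in peripheral W131AOTII libraries, so it was lower but not absent in both Cbl-b-/- groups at the level of the whole gene. CD4 T cell markers summed to 11590 to 23270 CPM over 7 genes in every library, and naive T cell markers to 6473 to 11310 CPM over 7 genes. Peripheral W131AOTII replicate 2, Cbl-b-/- OTII replicate 2 and thymic OTII replicate 3 were set aside together in 1 alternative analysis, a choice made from earlier results of these data. By the mean Pearson r of log2 CPM with the other libraries of the group, over all genes tested, they did not stand far apart: r was 0.9805, 0.9714 and 0.9785, against 0.9828 and 0.9839, 0.9746 and 0.9753, and 0.9767 and 0.9789 for the other libraries of the same groups. In W131AOTII replicate 2, B cell markers summed to 666 CPM against 79.1 CPM in the lowest library of that group, and the neutrophil list reached 15.3 CPM. Calls of the 7 genes lost without these libraries are given with their values.

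Members of this family are membrane proteins with immunoglobulin-like outer domains. The signalling receptors carry an inner TIR domain, the same module found in Toll-like receptors. A ligand-binding chain (Il1r1 for IL-1, Il1rl1 for IL-33, Il18r1 for IL-18) takes up the cytokine and then recruits an accessory chain (Il1rap or Il18rap), and the joined TIR domains dock MyD88 and IRAK kinases that lead to NF-kB and MAP kinases. Il1r2 binds IL-1 but lacks a TIR domain and acts as a decoy, and Sigirr is a TIR-bearing inhibitor of the family. In T cells, the IL-33 receptor is known from type 2 helper cells and tissue regulatory T cells, the IL-18 receptor from type 1 helper cells, and Il1r1 from type 17 helper cells.

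Of the 7 genes, 5 lie in a row on chromosome 1 (GRCm38, all on the plus strand) in the order Il1r2, Il1r1, Il1rl1, Il18r1 and Il18rap. Il1r2 (ENSMUSG00000026073) spans bases 40074079 to 40125231, Il1r1 (ENSMUSG00000026072) 40225080 to 40317257, Il1rl1 (ENSMUSG00000026069) 40429570 to 40465415, Il18r1 (ENSMUSG00000026070) 40465552 to 40500854 and Il18rap (ENSMUSG00000026068) 40515362 to 40551705. Il18r1 starts 136 bases after the end of Il1rl1. Il1rap (ENSMUSG00000022514) lies on chromosome 16 at 26581704 to 26730117 on the plus strand, and Sigirr (ENSMUSG00000025494) on chromosome 7 at 141091175 to 141100572 on the minus strand. Il1rap shares 552 of its 11360 exonic bases with the antisense gene Gm20319, which had 0 or 1 counts in every library.

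Promoter windows of 300 bases, from 250 before to 50 after a transcript start, were taken from RefSeq (GRCm38.p6) and matched 6 of the 7 genes in 10 windows. The sequences shown are both windows of Il1rl1 and the window of Il1r2, the 2 genes whose levels moved most between the peripheral groups, and the window of Il18r1 that held motif matches, as the next gene along, which had no call between peripheral groups. Capitals mark matches, on either strand, to the letters AGATAA of GATA factors or TTCNNNGAA of STAT factors. The starts of the second Il1rl1 window, of the Il1r2 window and of the Il18r1 window shown lie within the annotated gene bodies.
Il1rl1, first start, chr1:40429320-40429619, plus strand: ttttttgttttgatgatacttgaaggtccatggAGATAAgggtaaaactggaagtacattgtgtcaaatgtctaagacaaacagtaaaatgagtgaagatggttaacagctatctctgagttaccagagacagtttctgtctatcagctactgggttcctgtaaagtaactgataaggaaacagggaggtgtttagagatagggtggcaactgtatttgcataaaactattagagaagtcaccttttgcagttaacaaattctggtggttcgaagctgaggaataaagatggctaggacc
Il1rl1, second start, chr1:40439379-40439678, plus strand: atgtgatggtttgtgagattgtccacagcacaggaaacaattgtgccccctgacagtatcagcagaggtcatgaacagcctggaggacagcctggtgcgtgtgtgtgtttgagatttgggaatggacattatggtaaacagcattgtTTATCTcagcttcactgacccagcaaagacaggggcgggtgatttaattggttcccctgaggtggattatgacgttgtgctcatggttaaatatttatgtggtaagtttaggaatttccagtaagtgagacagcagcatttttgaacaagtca
Il1r2, chr1:40085843-40086142, plus strand: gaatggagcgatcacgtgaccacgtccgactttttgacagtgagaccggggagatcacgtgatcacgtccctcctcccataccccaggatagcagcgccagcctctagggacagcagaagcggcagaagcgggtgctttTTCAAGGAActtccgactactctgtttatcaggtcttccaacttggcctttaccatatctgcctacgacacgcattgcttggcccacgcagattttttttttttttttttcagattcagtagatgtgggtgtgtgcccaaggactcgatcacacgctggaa
Il18r1, chr1:40465756-40466055, plus strand: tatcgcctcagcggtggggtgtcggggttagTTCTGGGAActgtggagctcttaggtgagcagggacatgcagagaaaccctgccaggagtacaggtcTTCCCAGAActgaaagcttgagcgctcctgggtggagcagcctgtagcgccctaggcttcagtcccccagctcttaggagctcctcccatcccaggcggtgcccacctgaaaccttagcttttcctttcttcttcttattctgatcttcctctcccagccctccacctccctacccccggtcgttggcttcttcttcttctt

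Each Il1rl1 window held 1 match to AGATAA, beginning 217 bases before the first start and 103 bases before the second. The Il1r2 window held 1 match to TTCNNNGAA, 111 bases before its start, and the third Il18r1 window held 2. No match to TGANTCA (AP-1) or TCACACC (T-box factors) was present in any of the 10 windows, and none to any of the 4 motifs in those of Il18rap, Il1r1 and Il1rap. Of 32851 promoter windows of the same length, 11.2% held AGATAA, 8.30% TTCNNNGAA, 7.81% TGANTCA and 3.98% TCACACC. A match describes letters only and shows no binding.

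Per kilobase of exon, the 7 genes covered a wide range in naive peripheral OTII cells. Sigirr stood at 63.4 ± 4.24 CPM per kb (SD, n = 3), Il18r1 at 5.57 ± 0.256 and Il1rap at 2.12 ± 0.225 CPM per kb. The other 4 genes were near the limit of detection: Il1r2 at 0.121 ± 0.0304, Il18rap at 0.114 ± 0.0204, Il1r1 at 0.0404 ± 0.0320 and Il1rl1 at 0.0132 ± 0.00724 CPM per kb. The genes with the larger fold changes between peripheral groups were thus among those with few reads, and their raw counts are given library by library. In bulk RNA, fewer cells with a transcript and less transcript per cell cannot be told apart.

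**Figure D1:**
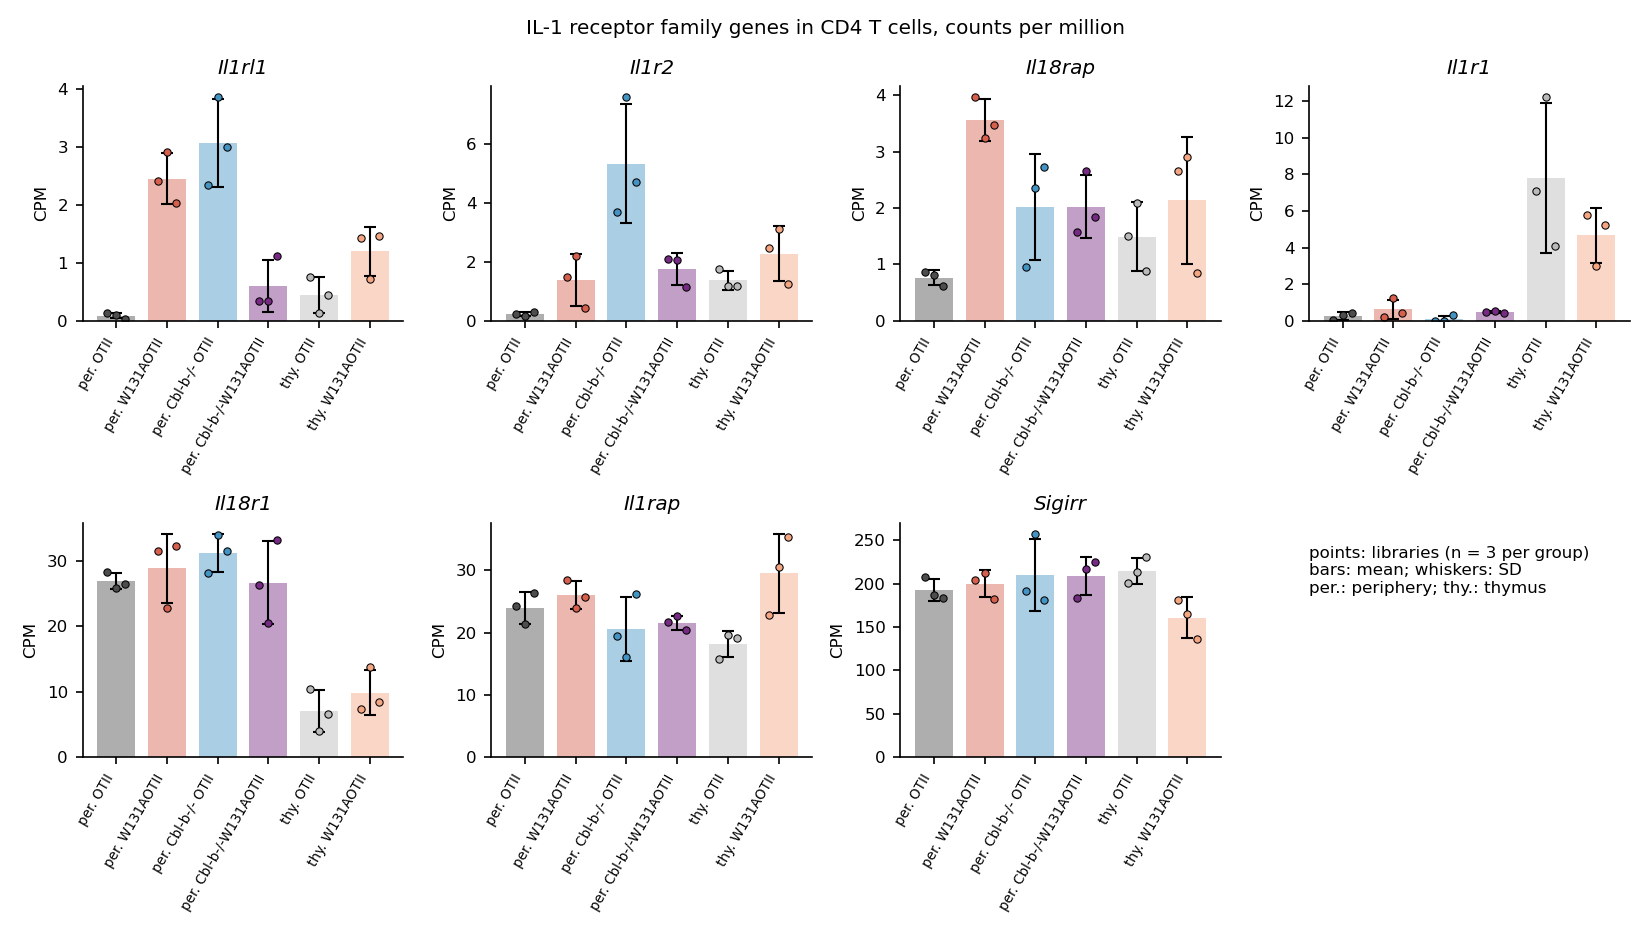
CPM of the 7 genes in each group, on a linear axis from 0 with its own scale for each gene. Points are libraries (3 per group), bars the mean and whiskers the SD. Il1rl1 is near 0 in peripheral OTII cells and highest in Cbl-b-/- OTII cells, Il1r1 is higher in both thymic groups than in the peripheral ones, and Sigirr varies little.

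Il1rl1 encodes ST2, the chain that binds IL-33. Replicates 1 to 3 of peripheral OTII had 4, 3 and 1 counts, those with W131A 85, 91 and 64, those without Cbl-b 47, 85 and 88, and those with both changes 12, 9 and 32. The gene was nearly silent in OTII cells, and every library of W131AOTII and Cbl-b-/- OTII cells was well above every OTII library. In the thymus the counts were 16, 4 and 10 for OTII and 37, 25 and 36 for W131AOTII cells. The Cbl-b-/-W131AOTII libraries lay between OTII and the other peripheral groups and overlapped with none of them.

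As a level, Il1rl1 stood at 0.0907 ± 0.0499 CPM in peripheral OTII, 2.46 ± 0.446 with W131A, 3.07 ± 0.759 without Cbl-b and 0.600 ± 0.444 CPM with both changes (SD, n = 3 each). Thymic levels were 0.442 ± 0.312 CPM in OTII and 1.20 ± 0.419 CPM in W131AOTII cells. From the highest, the order of the groups was Cbl-b-/- OTII, W131AOTII, thymic W131AOTII, Cbl-b-/-W131AOTII, thymic OTII and peripheral OTII. Libraries of neighbouring groups overlapped at each step of that order except between peripheral and thymic W131AOTII cells.

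Il1rl1 rose 25.7-fold in peripheral W131AOTII against OTII cells (log2 fold change 4.68, SE 0.655, edgeR adjusted p = 0.000208). It rose 32.1-fold in Cbl-b-/- OTII against OTII cells (log2 5.0, SE 0.657, adjusted p = 0.000134). The 3 OTII libraries behind these folds held 8 counts in all, so the size of the folds rests on few reads while their direction held in every library. Of the 15204 genes tested, 1.93% were called between W131AOTII and OTII cells and 8.21% between Cbl-b-/- OTII and OTII cells.

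With both changes together the level was lower than with either. Il1rl1 fell 4.09-fold in Cbl-b-/-W131AOTII against W131AOTII cells (log2 fold change -2.03, SE 0.521, adjusted p = 0.0237) and 5.11-fold against Cbl-b-/- OTII cells (log2 -2.35, SE 0.525, adjusted p = 0.0213). It was still 6.28-fold above OTII cells (log2 2.65, SE 0.687, adjusted p = 0.0224). In these comparisons 9.25%, 1.89% and 7.39% of all genes were called. The interaction, the effect of W131A in Cbl-b-/- cells minus that in cells with Cbl-b, was -7.03 on the log2 scale (SE 0.843, adjusted p = 0.000209), in a comparison where 0.631% of genes were called.

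The rises from OTII and the interaction were called in each of 27 alternative analyses, with adjusted p at most 0.00338 and 0.00276 for the rises and 0.00204 for the interaction. The fall against W131AOTII cells lost its call without the 3 libraries set aside (adjusted p = 0.0901), without W131AOTII replicate 2 (0.0839) or 3 (0.052) and without Cbl-b-/-W131AOTII replicate 1 (0.123) or 2 (0.0828). The fall against Cbl-b-/- OTII cells lost it without the 3 libraries (0.0921), without Cbl-b-/- OTII replicate 2 (0.0753) and without Cbl-b-/-W131AOTII replicate 1 (0.123) or 2 (0.112). The remaining rise over OTII lost it with limma voom (0.0807), without OTII replicate 2 (0.0845) or 3 (0.121) and without Cbl-b-/-W131AOTII replicate 3 (0.119).

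In the thymus Il1rl1 had a log2 difference of 1.47 between W131AOTII and OTII cells (SE 0.555, adjusted p = 0.18), and their libraries overlapped on the CPM scale, with 0.718 CPM in the lowest W131AOTII and 0.755 CPM in the highest OTII library. There 2.77% of all genes were called. The effect of W131A in the periphery minus that in the thymus was 3.21 with edgeR (SE 0.875, adjusted p = 0.144), where 0.381% of genes were called. DESeq2 called it (log2 3.27, adjusted p = 0.0303), so this call depends on the tool. Between peripheral and thymic OTII cells Il1rl1 fell by 2.17 on the log2 scale (SE 0.720, adjusted p = 0.0367), although 1 library of each group overlapped. That call was lost, among others, with the replicate number as a block, without any of the 3 peripheral OTII libraries (0.0567, 0.0846 and 0.144 without replicates 1, 2 and 3), without thymic OTII replicate 1 (0.207) or 3 (0.0707), without the 3 libraries set aside (0.0828) and with limma voom (0.17).

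Il1r1, the signalling receptor for IL-1, was a thymic transcript in these samples. Thymic OTII replicates had 150, 373 and 93 counts and thymic W131AOTII replicates 150, 104 and 129. Peripheral counts were 1, 9 and 12 in OTII, 8, 38 and 14 with W131A, 0, 0 and 9 without Cbl-b and 16, 14 and 13 in Cbl-b-/-W131AOTII cells. Every thymic library was above every peripheral library, and the 4 peripheral groups overlapped except Cbl-b-/-W131AOTII with OTII and with Cbl-b-/- OTII.

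Levels of Il1r1 were 7.79 ± 4.11 CPM in thymic OTII and 4.67 ± 1.48 CPM in thymic W131AOTII cells, against 0.257 ± 0.203 in peripheral OTII, 0.631 ± 0.523 with W131A, 0.102 ± 0.177 without Cbl-b and 0.481 ± 0.0372 CPM with both changes (SD, n = 3 each). Il1r1 fell by 4.91 on the log2 scale from thymic to peripheral OTII cells (SE 0.756, adjusted p = 0.000104), a 30.2-fold lower level. In W131AOTII cells it fell by 2.89 (SE 0.669, adjusted p = 0.00395), 7.40-fold. Both falls were called in every alternative analysis. Between periphery and thymus 18.3% of genes were called in OTII and 19.2% in W131AOTII cells, so a call there is common.

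Of 5 comparisons between peripheral groups, 0 were called for Il1r1 with edgeR, DESeq2 or limma voom, and 1 had an unadjusted p under 0.05 with edgeR. The difference of Cbl-b-/-W131AOTII from Cbl-b-/- OTII cells (adjusted p = 0.273) was called in 2 of 27 alternatives, without a filter and without Cbl-b-/- OTII replicate 3. Peripheral W131AOTII replicate 2, with 38 counts, was the highest peripheral library and also the library with the most Il1b counts (58) and S100a8 counts (123). The part of other cells in that value was not tested. Mast cell and basophil markers summed to 17.9 to 69.2 CPM in thymic and 9.50 to 15.3 CPM in peripheral libraries. Of that list of 8 genes, Cpa3 was at 46.8 ± 20.2 CPM in thymic OTII and 0.390 ± 0.136 CPM in peripheral OTII cells, while Cd200r3 was higher in the periphery, by 1.03 in OTII (SE 0.247, adjusted p = 0.00587) and 1.51 in W131AOTII cells (SE 0.25, adjusted p = 0.000213), and Mcpt4, Mcpt8 and Fcer1a had 0 counts in every library. Their part in the thymic Il1r1 level was not tested.

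Il18r1, the chain that binds IL-18, ran the opposite way between the tissues. Its counts were 845, 756 and 736 in peripheral OTII, 1111, 709 and 1013 with W131A, 561, 744 and 921 without Cbl-b and 898, 547 and 954 with both changes. In the thymus it had 220, 123 and 152 counts for OTII and 190, 478 and 207 for W131AOTII. On the CPM scale every peripheral library, at 20.4 to 33.8 CPM, was above every thymic library, at 4.03 to 13.7 CPM.

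Il18r1 rose by 1.94 on the log2 scale from thymic to peripheral OTII cells (SE 0.282, adjusted p = 6.08e-05) and by 1.55 in W131AOTII cells (SE 0.275, adjusted p = 0.000413), 3.84-fold and 2.93-fold. Both calls held in every alternative analysis. The peripheral groups stood at 26.8 ± 1.23, 28.8 ± 5.26, 31.1 ± 2.90 and 26.6 ± 6.37 CPM in OTII cells, with W131A, without Cbl-b and with both changes (SD, n = 3 each). Their log2 differences lay between -0.22 and 0.21 and none was called. The thymic groups, at 7.03 ± 3.19 CPM in OTII and 9.82 ± 3.43 CPM in W131AOTII cells, overlapped. Il18r1 begins just after Il1rl1 and had no call in either comparison where Il1rl1 rose most.

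Il1r2, the decoy receptor for IL-1, was lowest in peripheral OTII cells, with 7, 5 and 8 counts. It had 53, 69 and 14 counts with W131A, 74, 167 and 138 without Cbl-b and 72, 55 and 33 with both changes. Thymic counts were 37, 36 and 27 for OTII and 64, 108 and 31 for W131AOTII. On the CPM scale every other library was above the 3 peripheral OTII libraries, and the Cbl-b-/- OTII libraries were above all libraries of the other groups.

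The levels of Il1r2 were 0.231 ± 0.0580 CPM in peripheral OTII, 1.39 ± 0.891 with W131A, 5.34 ± 2.02 without Cbl-b and 1.77 ± 0.541 CPM with both changes (SD, n = 3 each). Thymic levels were 1.37 ± 0.325 CPM in OTII and 2.28 ± 0.939 CPM in W131AOTII cells. The thymic groups, W131AOTII and Cbl-b-/-W131AOTII cells formed a middle range in which neighbouring groups overlapped, between Cbl-b-/- OTII above and peripheral OTII below.

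Il1r2 rose 22.8-fold in Cbl-b-/- OTII against OTII cells (log2 fold change 4.51, SE 0.557, adjusted p = 8.43e-05) and 7.58-fold in Cbl-b-/-W131AOTII against OTII cells (log2 2.92, SE 0.551, adjusted p = 0.00289). Both were called in every alternative analysis. It rose 5.94-fold in W131AOTII cells (log2 2.57, SE 0.552, adjusted p = 0.0135). That call was lost with limma voom (adjusted p = 0.202), without the 3 libraries set aside (0.0826), without OTII replicate 1 (0.0721), 2 (0.0887) or 3 (0.0506) and without W131AOTII replicate 2 (0.0831), the library with 69 counts and the neutrophil signal.

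In Cbl-b-/-W131AOTII cells the log2 difference of Il1r2 in the edgeR fit was 0.35 against W131AOTII (SE 0.461, adjusted p = 0.667) and -1.59 against Cbl-b-/- OTII cells (SE 0.457, adjusted p = 0.0819). The latter was called with DESeq2 (adjusted p = 0.0219). Whether Il1r2 and Il1rl1 differ in this was not tested. The interaction of Il1r2 was -4.16 on the log2 scale (SE 0.717, adjusted p = 0.00566) and was called in every alternative analysis, with adjusted p up to 0.0488 with limma voom. Il1r2 fell by 2.55 on the log2 scale from thymic to peripheral OTII cells (SE 0.559, adjusted p = 0.00268), whereas in W131AOTII cells the difference was -0.72 (SE 0.459, adjusted p = 0.321).

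**Figure D2:**
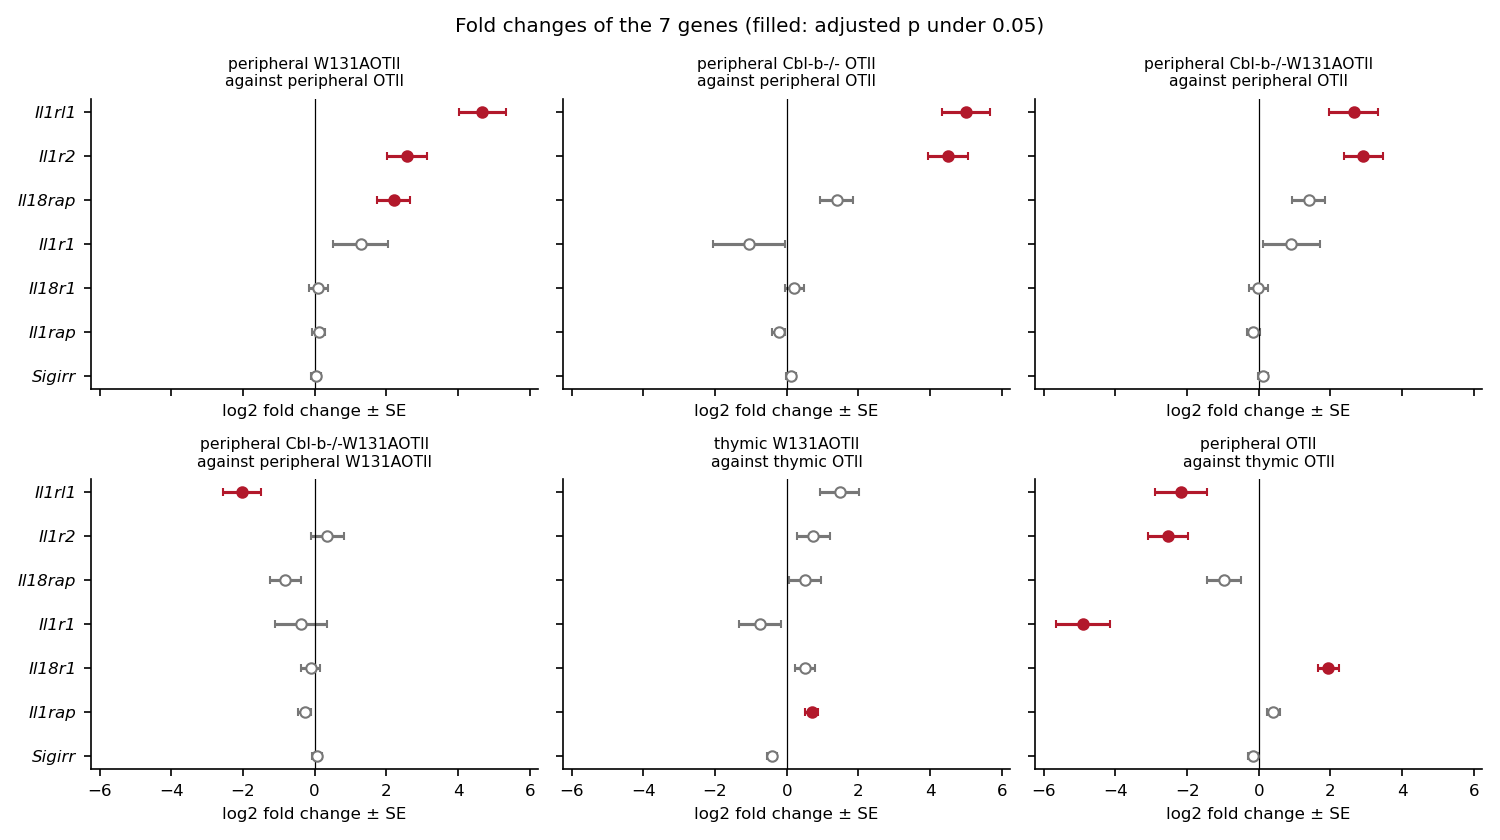
Log2 fold changes of the 7 genes in 6 comparisons, with whiskers of 1 SE and filled red points where the adjusted p was under 0.05. Il1rl1 and Il1r2 are to the right of 0 with a call in all 3 comparisons with peripheral OTII, and Il18r1, Il1rap and Sigirr sit near 0 there.

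Il18rap, the accessory chain of the IL-18 receptor, was called in 1 of 10 comparisons with edgeR, 4 with DESeq2 and 1 with limma voom. Its counts were 26, 24 and 17 in peripheral OTII, 140, 101 and 109 with W131A, 19, 52 and 80 without Cbl-b and 54, 71 and 53 with both changes, with 32, 64 and 20 in thymic OTII and 69, 101 and 21 in thymic W131AOTII libraries. On the CPM scale the 3 W131AOTII libraries, at 3.25 to 3.97 CPM, were above all other libraries. Peripheral OTII libraries, at 0.610 to 0.868 CPM, were below those of the other peripheral groups.

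The mean levels of Il18rap were 0.766 ± 0.137 CPM in peripheral OTII, 3.56 ± 0.369 with W131A, 2.02 ± 0.940 without Cbl-b and 2.03 ± 0.558 CPM with both changes (SD, n = 3 each). Thymic levels were 1.5 ± 0.609 CPM in OTII and 2.14 ± 1.12 CPM in W131AOTII cells. Il18rap rose 4.62-fold in peripheral W131AOTII against OTII cells (log2 fold change 2.21, SE 0.457, adjusted p = 0.0111), a call lost when OTII replicate 1 (adjusted p = 0.0514), 2 (0.0535) or 3 (0.0778) was left out. Its log2 differences from OTII were 1.40 in Cbl-b-/- OTII (SE 0.460, adjusted p = 0.0622) and 1.39 in Cbl-b-/-W131AOTII cells (SE 0.457, adjusted p = 0.0682). DESeq2 called both of these differences (adjusted p = 0.024 and 0.0314) and the interaction of Il18rap (log2 -2.24, adjusted p = 0.0354, against 0.15 with edgeR), and limma voom called none of the 3. Il18rap and Il18r1 form 1 receptor, yet Il18r1 differed by 0.11 (SE 0.266, adjusted p = 0.982) where Il18rap rose. Il18rap was at 0.528 ± 0.0547 CPM per kb in W131AOTII cells, where Il18r1 was at 5.99 ± 1.09 CPM per kb.

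Il1rap, the accessory chain shared by the IL-1 and IL-33 receptors, was present in every library at 354 to 1065 counts. Peripheral levels were 24.0 ± 2.56 CPM in OTII, 26.0 ± 2.23 with W131A, 20.6 ± 5.18 without Cbl-b and 21.6 ± 1.12 CPM with both changes (SD, n = 3 each), and no peripheral comparison was called. Thymic OTII libraries had 15.7, 19.6 and 19.2 CPM and thymic W131AOTII libraries 22.8, 30.6 and 35.3 CPM, with no overlap. Il1rap rose by 0.70 on the log2 scale in thymic W131AOTII cells (SE 0.183, adjusted p = 0.0441), a 1.63-fold rise. That call is close to the threshold and was kept in 8 of 27 alternative analyses. It was lost, among others, without the 3 libraries set aside (adjusted p = 0.0799), with only the groups compared (0.2), with limma voom (0.0552), without thymic OTII replicate 1 (adjusted p = 0.187), 2 (0.0643) or 3 (0.122), without thymic W131AOTII replicate 2 (0.0942) or 3 (0.242), without each of the 3 peripheral OTII libraries (0.0658 to 0.0704) and with library size in place of TMM (0.0642).

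Sigirr, the inhibitory member, held the highest level per kilobase of the 7 genes in every group. Its means were 193 ± 12.9 CPM in peripheral OTII, 199.7 ± 15.6 with W131A, 210.2 ± 41.3 without Cbl-b, 209 ± 21.7 with both changes, 215 ± 15.0 in thymic OTII and 161 ± 23.2 CPM in thymic W131AOTII cells (SD, n = 3 each). Sigirr was called in 0 of 10 comparisons with edgeR, DESeq2 or limma voom, and had an unadjusted p under 0.05 with edgeR in 3. Between peripheral and thymic W131AOTII cells (adjusted p = 0.14) it was called in 2 of 27 alternatives, with GC content and length offsets and without Cbl-b-/- OTII replicate 2. The thymic W131AOTII libraries, at 136 to 182 CPM, were below the thymic OTII libraries, at 201 to 231 CPM, with a log2 difference of -0.42 (SE 0.141, unadjusted p = 0.00797, adjusted p = 0.132). In the peripheral comparisons its log2 differences lay between -0.01 and 0.12.

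Read by comparison, W131AOTII against OTII cells had 3 of the 7 genes called, all higher, beside 1.93% of all genes. The median log2 difference was 1.28 over the 7 beside -0.00 over all genes tested. Cbl-b-/- OTII against OTII cells had 2 higher and a median of 0.21 beside 0.04, and Cbl-b-/-W131AOTII against OTII cells 2 higher and a median of 0.90 beside 0.04. Of all genes, 8.21% and 7.39% were called there. Against W131AOTII and against Cbl-b-/- OTII cells, Cbl-b-/-W131AOTII cells had 1 gene lower each, Il1rl1, beside 9.25% and 1.89% of all genes called. In the thymus 1 gene was higher in W131AOTII cells, beside 2.77% of all genes called. Between tissues 1 was higher and 3 lower in peripheral OTII cells, and 1 was higher and 1 lower in peripheral W131AOTII cells. Calls between tissues took in 18.3% and 19.2% of all genes. The interaction had 2 lower, where 0.631% of all genes were called. The difference of the W131A effect between the tissues had 0 called with edgeR, beside 0.381% of all genes. In that comparison 6 had an unadjusted p under 0.05, 1 was called with DESeq2, Il1rl1, and 0 with limma voom. Over all genes, 255 of 293 calls between W131AOTII and OTII cells were higher and 90 of 96 calls of the interaction were lower, the same direction as the members called. The genes were chosen with calls from these libraries already known, so nothing is read from these counts.

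**Figure D3:**
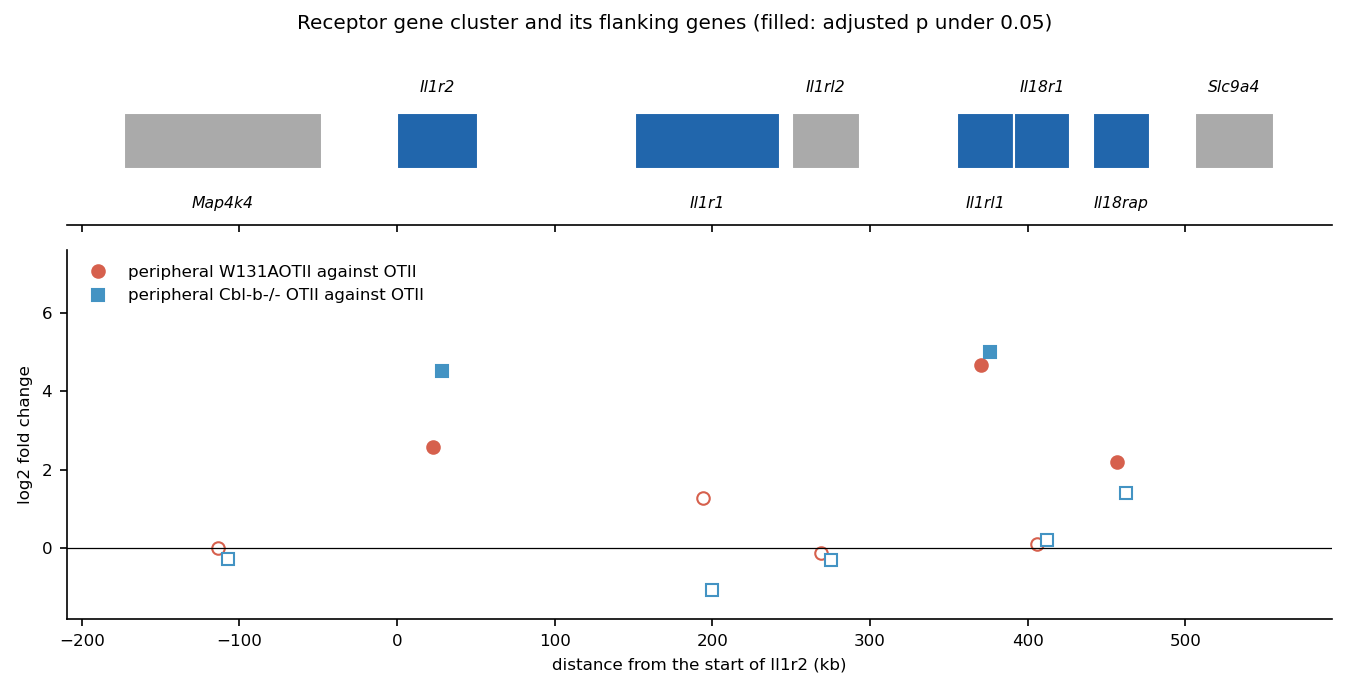
The chromosome 1 receptor cluster with its flanking genes drawn to scale as distance from the start of Il1r2 (kb), members in blue and other genes in grey, above the log2 fold change of each tested gene in W131AOTII (circles) and Cbl-b-/- OTII (squares) against OTII cells, filled where the adjusted p was under 0.05. Il1r2, Il1rl1 and Il18rap have filled points. Of the genes that lie among them, Il1rl2 and Il18r1 are near 0, and Il1r1 has open points at 1.28 (W131AOTII) and -1.06 (Cbl-b-/- OTII).

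Along the chromosome, the genes that rose were interrupted by genes without a call. Between Il1r2 and Il1rl1 lie Il1r1, with no peripheral call, and Il1rl2, the receptor for IL-36 cytokines, which is not one of the 7 genes. Il1rl2 had 735 to 1597 counts in every library, group means from 36.1 to 46.8 CPM, and was called in 0 of 8 comparisons between groups with edgeR, DESeq2 or limma voom, with an unadjusted p under 0.05 in 2. The flanking gene Map4k4, a kinase, was also called in 0 of 8, and Slc9a4, the flanking sodium-proton exchanger, had 0 counts in all libraries.

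The transcripts most like each receptor across the 12 peripheral libraries were ranked by Pearson's r of log2 CPM over all genes tested. For Il1rl1 they were Tpx2, a mitotic spindle protein (r = 0.944), Cxcr3, a chemokine receptor of effector T cells (r = 0.936), and Ccrl2, a chemokine-binding receptor (r = 0.921). For Il1r2 they included Serpina3g (r = 0.954), a protease inhibitor, and S100a6 (r = 0.953), a calcium-binding protein. For Il18rap they were led by the thrombin-receptor family members F2rl2 (r = 0.899) and F2rl1 (r = 0.893), and for Sigirr by Pold4 (r = 0.926). Over all 18 libraries Il1r1 was most like Tox2 (r = 0.95), a transcription factor gene, and Il18r1 was led by predicted genes. Libraries of a group share their genotype, so these values describe shared group patterns in few samples.

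Among the receptors themselves, Il1rl1 had r = 0.75 with Il1r2 and 0.742 with Il18rap over the 12 peripheral libraries. Over all 18 libraries, which include both tissues, Il1r1 had r = -0.885 with Il18r1, and Il1rap had r = -0.741 with Sigirr. Cxcr3, the gene second most like Il1rl1, stood at 2.53 ± 0.450 CPM in peripheral OTII, 14.2 ± 4.44 with W131A, 20.7 ± 2.02 without Cbl-b and 10.1 ± 3.00 CPM with both changes (SD, n = 3 each).

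Markers of other T cell states also differed between the peripheral groups. Regulatory T cell markers, 10 genes with Foxp3 among them, summed to 220.6 to 225.5 CPM in peripheral OTII, 615.6 to 673.8 with W131A, 289.7 to 418.9 without Cbl-b and 646.1 to 703.9 CPM with both changes. Against OTII cells 9, 3 and 9 of the 10 rose, with W131A, without Cbl-b and with both changes in turn. Of all genes, 1.93%, 8.21% and 7.39% were called in these comparisons. Foxp3, the defining transcription factor of regulatory T cells, rose by 2.25 (SE 0.203, adjusted p = 2.14e-06) with W131A alone and by 1.96 (SE 0.201, adjusted p = 5.83e-06) with both changes. The marker sum and Il1rl1 did not keep the same order: Cbl-b-/- OTII libraries had the highest mean Il1rl1 with the middle sums, and Cbl-b-/-W131AOTII libraries, whose sums overlapped with those of W131AOTII libraries, had Il1rl1 at 0.336 to 1.11 CPM. Whether regulatory T cells carried the Il1rl1 reads was not tested.

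**Figure D4:**
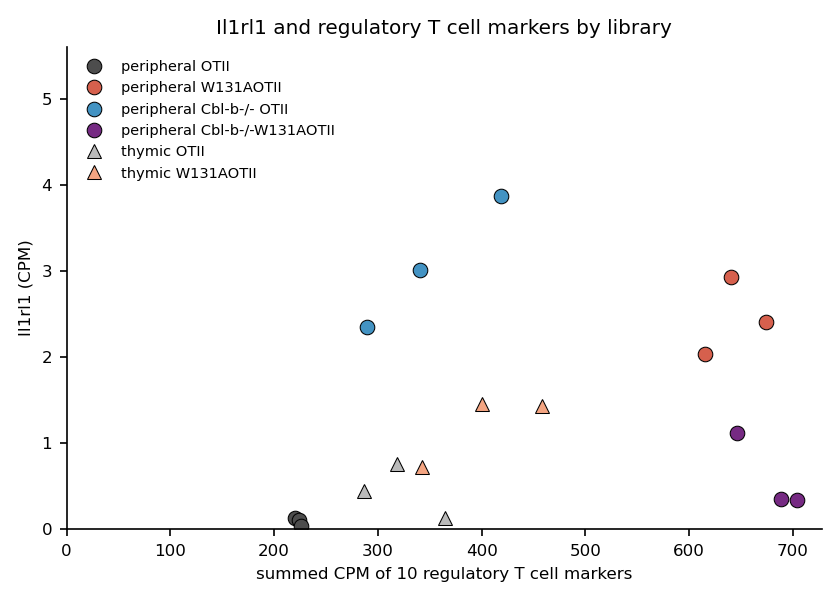
Il1rl1 (CPM) against the summed CPM of the 10 regulatory T cell markers, 1 point per library, circles for peripheral and triangles for thymic groups. Peripheral W131AOTII and Cbl-b-/-W131AOTII libraries share the right side of the plot and differ in Il1rl1, while Cbl-b-/- OTII libraries reach the highest Il1rl1 at lower marker sums.

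Effector and memory T cell markers summed to 292 to 344 CPM in peripheral OTII, 510 to 642 with W131A, 376 to 466 without Cbl-b and 485 to 548 CPM with both changes, over 15 genes of which 14 were tested. Of these, 4, 8 and 6 rose against OTII cells in the 3 groups in turn, and 0, 0 and 1 fell, beside 1.93%, 8.21% and 7.39% of all genes called. NK and innate-like T cell markers summed to 82.2 to 95.9 CPM in OTII and 178 to 432 CPM in W131AOTII libraries, with 111 to 190 CPM without Cbl-b and 276 to 363 CPM with both changes. Their part in the Il1rl1, Il1r2 and Il18rap levels was not tested.

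Of the group 2 innate lymphoid cell list, cells with high ST2, Klrg1 had 0 or 1 counts in OTII, 1 to 20 with W131A, 181 to 204 without Cbl-b and 23 to 72 counts with both changes, and it is also a marker of effector and regulatory T cells. Il17rb, the IL-25 receptor chain of the same list, fell by 1.65 (SE 0.267, adjusted p = 0.00116) with W131A and by 2.14 (SE 0.279, adjusted p = 9.17e-05) with both changes against OTII cells. Of the 3 tested genes of the list, 0 rose and 1 fell with W131A against OTII cells. Without Cbl-b 1 rose and 0 fell, and with both changes 1 rose and 1 fell. Against Cbl-b-/- OTII cells, 0 rose and 2 fell with both changes. Of all genes, 1.93%, 8.21%, 7.39% and 1.89% were called in these comparisons in turn. The type 2 cytokine gene Il13 had 0 counts in all 12 peripheral libraries, and Il5 had at most 2. The summed level of the list of 7 genes was 16.1 to 20.5 CPM in OTII, 14.2 to 19.1 with W131A, 25.4 to 28.1 without Cbl-b and 17.3 to 24.3 CPM with both changes. Of the list of 8 mast cell and basophil genes, Ms4a2 and Gata2 had no more than 1 and 2 counts in peripheral libraries. Cd200r3 of the same list was higher in the periphery than in the thymus, and the list summed to 9.50 to 15.3 CPM in peripheral libraries. The part of these cells in the peripheral Il1rl1 level was not tested.

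The ligands of the family were almost absent from these cells. Il33 had 0 to 3 counts, Il1a at most 13 counts and Il18 2 to 26 counts in a library. Il1b had at most 2 counts, except for 58 in W131AOTII replicate 2 and 10 in replicate 3 of that group. Of 11 ligands and soluble antagonists, 3 passed the filter. Il18bp, the secreted protein that captures IL-18, was the abundant one.

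Il18bp stood at 14.9 ± 2.25 CPM in peripheral OTII, 20.3 ± 4.20 with W131A, 40.7 ± 5.0 without Cbl-b and 18.3 ± 2.21 CPM with both changes (SD, n = 3 each). It rose by 1.45 on the log2 scale in Cbl-b-/- OTII against OTII cells (SE 0.176, adjusted p = 7.93e-05) and fell by 1.15 in Cbl-b-/-W131AOTII against Cbl-b-/- OTII cells (SE 0.175, adjusted p = 0.000798). Its interaction was -1.60 (SE 0.246, adjusted p = 0.00211). In the thymus Il18bp fell by 0.96 in W131AOTII cells (SE 0.180, adjusted p = 0.00465), from 13.5 ± 1.17 to 6.94 ± 0.677 CPM, a call lost when only the 2 groups were fitted (0.0819). The peripheral Il18bp calls held in every alternative analysis. The Il1 antagonist Il1rn fell by 3.46 in Cbl-b-/-W131AOTII against W131AOTII cells (SE 1.05, adjusted p = 0.044), on at most 47 counts. That call was kept in 14 of 25 alternatives and lost, among others, with the replicate block, with library size in place of TMM, without the 3 libraries set aside and without W131AOTII replicate 2, the library with those 47 counts (0.165).

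Signalling genes downstream of the TIR domain were followed as a list of 26 genes. Beside shares called over all genes of 1.93% with W131A and 8.21% without Cbl-b against OTII cells, and of 9.25% with both changes against W131A alone, the counts on the list were small numbers of genes from which no difference from other genes is read. Of the 26, 1 rose in W131AOTII against OTII cells, Map3k8, a kinase that links NF-kB signalling to ERK (log2 fold change 1.49, SE 0.25, adjusted p = 0.00171), with a median of 0.00 over the list. With both changes 2 of 26 rose against OTII cells and 2 fell, beside 7.39% of all genes called. Map3k8 (2.00, SE 0.252, adjusted p = 6.34e-05) and Peli2 (3.80, SE 0.993, adjusted p = 0.0221) rose. Irak3 (-0.84, SE 0.241, adjusted p = 0.0406) and Mapk14 (-0.45, SE 0.136, adjusted p = 0.0478) fell. These calls were kept in 27 of 27 alternatives for Map3k8, 20 of 25 for Peli2, 19 of 27 for Irak3 and 14 of 27 for Mapk14. Without Cbl-b, 1 of 26 rose against OTII cells and 3 fell: Map3k8 (0.84, adjusted p = 0.0453), the kinase genes Mapk14 (-0.55, adjusted p = 0.0208) and Ikbkb (-0.43, adjusted p = 0.0497), and Irak3, a brake on IRAK signalling (-0.90, adjusted p = 0.0303). Of 27 alternative analyses, 9 kept the call of Map3k8 without Cbl-b, 22 that of Mapk14, 11 that of Ikbkb and 20 that of Irak3, with adjusted p up to 0.197, 0.124 and 0.128 for Map3k8, Mapk14 and Irak3 without OTII replicate 2, 3 and 3, and up to 0.476 for Ikbkb with GC content and length offsets. Loss of Cbl-b on the W131A background went with a fall of 3: Myd88, the TIR adaptor (-0.57, SE 0.108, adjusted p = 0.00687), Irak3 (-0.91, SE 0.241, adjusted p = 0.0277) and the kinase gene Map2k3 (-0.42, SE 0.123, adjusted p = 0.0379). The call of Myd88 held in all 27 alternatives, that of Irak3 in 21 (adjusted p up to 0.135, without Cbl-b-/-W131AOTII replicate 1) and that of Map2k3 in 15 (up to 0.205, without W131AOTII replicate 3). Myd88 itself stood at 152 ± 12.3 CPM in OTII, 190 ± 13.2 with W131A, 136 ± 9.03 without Cbl-b and 128 ± 7.07 CPM with both changes (SD, n = 3 each).

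Feedback genes and NF-kB targets were read as a list, and whether they followed the receptors was not tested. Over all genes, 1.93% were called with W131A, 8.21% without Cbl-b and 7.39% with both changes against OTII cells. Cbl-b-/-W131AOTII cells had 1.89% called against Cbl-b-/- OTII and 9.25% against W131AOTII cells. Of 17 tested, 3 rose in W131AOTII against OTII cells: Bcl3, a nuclear IkB protein (1.04, SE 0.176, adjusted p = 0.00181), Socs3, a cytokine feedback inhibitor (0.76, SE 0.145, adjusted p = 0.00599), and Nfkb2 (0.60, SE 0.147, adjusted p = 0.0346). The call of Nfkb2 was kept in 20 of 27 alternatives (adjusted p up to 0.143, without OTII replicate 2), and those of Bcl3 and Socs3 in all 27. In Cbl-b-/- OTII against OTII cells, 1 of 17 rose, Socs1, a cytokine feedback inhibitor (0.90, adjusted p = 0.00551), and 3 fell: Otulin, a deubiquitinase (-0.42, adjusted p = 0.0208), Rela (-0.50, adjusted p = 0.0344) and Socs3 (-0.48, adjusted p = 0.0471). The call of Socs1 held in all 27 alternatives, and 22, 21 and 17 kept those of Otulin, Rela and Socs3, with adjusted p up to 0.0927, 0.143 and 0.157 without OTII replicate 3. In Cbl-b-/-W131AOTII against Cbl-b-/- OTII cells, 1 of 17 rose, Socs3 (0.65, adjusted p = 0.0218, kept in 24 of 27 and up to 0.0945 without Cbl-b-/-W131AOTII replicate 3), and 0 fell. Against W131AOTII cells, 5 of 17 fell in Cbl-b-/-W131AOTII cells, among them Bcl3 (-1.29, SE 0.178, adjusted p = 0.000382), and the NF-kB subunits Rela (-0.80, adjusted p = 0.00415) and Relb (-0.70, adjusted p = 0.0102), whose call was lost without Cbl-b-/-W131AOTII replicate 1 (0.0598). Of the genes that process the ligands, Casp1, which cleaves IL-1 beta and IL-18, rose by 1.34 in Cbl-b-/- OTII (SE 0.259, adjusted p = 0.00594) and by 1.82 in Cbl-b-/-W131AOTII cells (SE 0.261, adjusted p = 0.000232) against OTII cells, 1 and 3 of 6 tested genes having risen. The former call of Casp1 was lost without OTII replicate 3 (0.0604).

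Transcription factors tied to these receptors in T cells rose in part. Over all genes, 1.93% were called with W131A, 8.21% without Cbl-b and 7.39% with both changes against OTII cells. With both changes, 4 of 17 tested rose and 1 fell against OTII cells. In W131AOTII against OTII cells 5 of 17 tested rose, among them Foxp3, Eomes (1.73, SE 0.314, adjusted p = 0.00358), Irf4 (1.12, SE 0.219, adjusted p = 0.00716) and Maf (2.77, SE 0.582, adjusted p = 0.0122). In Cbl-b-/- OTII cells 3 rose and 2 fell, with Tbx21, the T-bet gene of type 1 cells (1.96, SE 0.478, adjusted p = 0.0191), and Maf (2.36, SE 0.590, adjusted p = 0.021) among the former and Stat6 (-0.52, adjusted p = 0.0236) and Stat4 (-0.55, adjusted p = 0.0382) as the latter. Calls lost in part of the 27 alternatives were that of Irf4 in W131AOTII cells (kept in 26, adjusted p = 0.0535 without OTII replicate 2), those of Maf (kept in 23 in W131AOTII and 22 in Cbl-b-/- OTII cells, up to 0.281 and 0.165 with limma voom), that of Tbx21 (kept in 23, up to 0.126 without OTII replicate 3) and those of Stat6 and Stat4 (kept in 21 each, up to 0.113 and 0.175 without the 3 libraries set aside). Gata3, the factor of type 2 cells known to drive Il1rl1, stood at 95.3 ± 12.2 CPM in OTII, 85.7 ± 10.1 with W131A, 80.2 ± 4.61 without Cbl-b and 80.1 ± 3.59 CPM with both changes (SD, n = 3 each).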

How the data were processed

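The authors deposited raw read counts per Ensembl gene in 1 table with a column per library. The submitters' processing notes name STAR 2.7.2, DESeq2 and the build GRCm38. The sources used here do not give how reads were counted, with which annotation, strand setting and filters, and reads of overlapping antisense genes may be mixed in. All 55536 identifiers matched GENCODE M21. Library totals ran from 19708218 to 36218772 counts, and a gene with fewer than 10 counts in a library is known only within wide counting error.

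All 18 libraries entered 1 edgeR 4.0.16 fit (R 4.3.3) with a mean per group, TMM scaling, filterByExpr and a robust quasi-likelihood F test with 12 residual degrees of freedom. P-values were Benjamini-Hochberg adjusted over 15204 genes, with a threshold of 0.05, and "called" means past it. The SE was back-calculated as the absolute unshrunk log2 fold change divided by the square root of the F statistic. The log2 fold change printed beside it is edgeR's shrunken estimate, which can differ for genes with few counts. CPM use TMM-scaled library sizes. Likeness used log2 CPM with a prior count of 2. The fit was checked on simulated counts.

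The 27 alternatives were library size in place of TMM, DESeq2 1.42.0, limma 3.58.1 voom, no filter, a stricter filter (1 CPM in 3 libraries), the replicate number as a block, offsets for GC content and length, leaving out 3 libraries together, fitting only the groups compared, and leaving out each of the 18 libraries. Promoter windows came from RefSeq. Sequences of proteins were not used here, nor a promoter of Sigirr.

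Groups came from the sample titles. Named were the 7 genes, up to 4 called genes with the smallest adjusted p per list and comparison, the 2 most abundant of each list of other cells, the 3 most alike genes per receptor and the neighbours on the chromosome. Gata3, Klrg1, Il17rb, Cd200r3, Il13, Il5, S100a8 and the ligands below the filter were named after their values were seen. The members and the 19 lists were chosen with earlier results of these data known.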

Additional observations from a re-analysis of the deposited data

Results flagged for a closer look

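The genes and lists were chosen with earlier results of these data known, so the values in this section are descriptions only. Il1rl1 was higher with W131A where Cbl-b was present and lower with W131A where it was absent. Its log2 difference of W131AOTII from OTII cells was 4.68 with Cbl-b present, and that of Cbl-b-/-W131AOTII from Cbl-b-/- OTII cells was -2.35. The test of the difference between these effects gave -7.03 (SE 0.843, edgeR adjusted p = 0.000209). All 3 W131AOTII libraries were above all 3 OTII libraries, and all 3 Cbl-b-/-W131AOTII libraries were below all 3 Cbl-b-/- OTII libraries.

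Il1r2 had log2 differences of 2.57 with Cbl-b present and -1.59 without it. The test of the difference gave -4.16 (SE 0.717, edgeR adjusted p = 0.00566). The fall from Cbl-b-/- OTII cells was not itself called with edgeR (adjusted p = 0.0819) and was called with DESeq2 (0.0219).

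Il18bp, the IL-18 binding protein, gave -1.60 in the same test (SE 0.246, adjusted p = 0.00211). The W131A effect also differed between tissues for 4 genes of the pathway lists, as periphery minus thymus on the log2 scale: Irf4 by 2.36 (adjusted p = 0.000865), Il18bp by 1.41 (adjusted p = 0.0132), Bcl3 by 1.16 (adjusted p = 0.0478) and Map3k8 by 1.61 (adjusted p = 0.0499). Of 27 alternative analyses, 27, 26, 11 and 9 kept these calls, with adjusted p up to 0.0574 for Il18bp without peripheral OTII replicate 3, up to 0.131 for Bcl3 without peripheral OTII replicate 1 and up to 0.121 for Map3k8 with only the groups compared.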

How the results depend on the processing

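Over the called fold changes of the 7 genes and the 27 alternatives, 436 of 485 values kept direction and call, 49 kept the direction and lost the call, and 0 reversed. Of 2426 values for genes of the pathway lists, 268 lost the call and 0 reversed. Of 52 values of the 7 genes that were not called, 8 gained a call in 1 or more alternatives, 21 of 1403 alternative values in all. Moves of the number called were these. With W131AOTII against OTII cells it was 3, but 2 with limma voom and without the 3 libraries set aside. With Cbl-b-/- OTII against OTII cells it was 2, but 3 with DESeq2 and without a filter. For the interaction it was 2, but 3 with DESeq2 and without a filter. Between peripheral and thymic OTII cells it was 4, but 3 with limma voom, a replicate block, without the 3 libraries and with only the groups compared, and in W131AOTII cells 2, but 3 with GC content and length offsets. With Cbl-b-/-W131AOTII against W131AOTII cells it was 1, but 0 without the 3 libraries and 2 with only the groups compared. Against Cbl-b-/- OTII cells it was 1, but 2 with DESeq2, 3 without a filter and 0 without the 3 libraries. Against OTII cells it was 2, but 1 with limma voom and 3 with DESeq2, without a filter and with only the groups compared. In the thymus it was 1, but 0 with library size in place of TMM, with limma voom, without the 3 libraries and with only the groups compared. For the W131A effect in the periphery against the thymus it was 0, but 1 with DESeq2 and 1 without a filter. The cause was not tested.

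Leaving out 1 library at a time gave 1 to 3 called genes for W131AOTII against OTII cells, 0 to 1 for Cbl-b-/-W131AOTII against W131AOTII, 0 to 2 against Cbl-b-/- OTII and 1 to 3 against OTII cells, 2 to 3 for Cbl-b-/- OTII against OTII cells, 3 to 4 and 2 to 3 between the tissues in OTII and W131AOTII cells, 2 for the interaction, 0 to 1 in the thymus and 0 to 1 for the difference between tissues. With a replicate block the interaction of Il1rl1 was -7.14 and that of Il1r2 -4.04, and the block ended 1 call of the 7 genes, that of Il1rl1 between peripheral and thymic OTII cells (adjusted p = 0.0524). Deviations of same-numbered libraries from their group means had r from -0.304 to 0.205 over 45 pairs, with 5 of them over 0.1. Libraries with different numbers were not compared in this way, so these values cannot tell whether the numbers pair libraries. The folds of Il1rl1 rest on 8 counts in peripheral OTII cells, which limits their size more than their direction.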
